A study of Homo sapiens with 12 samples.

Results

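HMGA1, HMGA2, IGF2BP1, IGF2BP2, IGF2BP3 and LIN28B are 6 genes of a growth programme that is active in fetal tissue and is often switched on again in tumours. They were chosen by name from the 20003 gene entries of the expression table, with their values under ZNF263 against control already known. Those values are therefore given here as a description, with no test of a member in that contrast. All 6 were found in the table, and all 6 reached 1 FPKM (fragments scaled by gene length and library size) in at least 2 of the 12 libraries. By line, 6 members reached that level in 2 or more PC9 libraries, 5 in HCC827 and 4 in H1975.

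The libraries came from PC9, HCC827 and H1975, established lung cancer lines with activating EGFR mutations. Each line carried either a vector that overexpresses ZNF263, a KRAB zinc-finger protein that binds G-rich and A-rich DNA, or a control vector, with 2 libraries for each of the 6 groups. Per the labels, cells of all groups, controls included, were kept in DMEM and exposed stepwise to osimertinib, an inhibitor of mutant EGFR. The sample titles add OR to each line's name without saying what it stands for, and the labels do not say whether cells were pools or clones, or whether the 2 libraries of a group came from separate cultures. What the p-values weigh is thus a spread that may be technical.

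The members belong to 3 protein families. HMGA1 and HMGA2 are small chromatin proteins whose AT-hooks bind the minor groove of AT-rich DNA and bend it. The IGF2BP proteins bind mRNAs, among them IGF2 and MYC, and protect them from decay. LIN28B binds precursors of the let-7 microRNAs and blocks their maturation, and let-7 in turn silences LIN28B, HMGA2 and the IGF2BP genes through their 3′ UTRs. In adult lung most of these genes are silent or low, and their return is known in many cancers, lung cancer among them.

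The let-7 family is shown because it is the known link between the members. The RefSeq table (GRCh38.p14) held 9 mature let-7 names from 12 genes, and all 9 carry the same seed, bases 2 to 8 of the microRNA, shown in capitals for 3 of them.
hsa-let-7a-5p: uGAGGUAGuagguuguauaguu
hsa-let-7g-5p: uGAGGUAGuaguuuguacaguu
hsa-miR-98-5p: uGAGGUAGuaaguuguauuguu
The complement of that seed, CTACCTC, was counted in the longest 3′ UTR of each gene's principal transcripts (GENCODE 29, GRCh38), on the transcript strand. HMGA2, IGF2BP1 and LIN28B each held 4 matches, in 3′ UTRs of 3003, 6206 and 4549 bases. Only 0.063% of the 18915 genes with a 3′ UTR held as many, and among genes with a 3′ UTR of like length (0.8 to 1.2 times) the shares were 0.107%, 0.595% and 0.248%. HMGA1, IGF2BP2 and IGF2BP3 each held 1 match. At least 1 was held by 8.59% of all genes, and by 8.24%, 11.2% and 12.1% of genes with 3′ UTRs of like length.

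The 3 members with 1 match, and the first match of LIN28B, are shown over 22 bases in the last exon, with the seed match in capitals. They lie at chr6:34245830-34245851 (HMGA1, plus strand, exon 6), chr3:185644220-185644241 (IGF2BP2, minus strand, exon 16), chr7:23311795-23311816 (IGF2BP3, minus strand, exon 15) and chr6:105078813-105078834 (LIN28B, plus strand, exon 4).
HMGA1: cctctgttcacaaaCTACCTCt
IGF2BP2: acacacagaagaagCTACCTCa
IGF2BP3: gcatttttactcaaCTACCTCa
LIN28B: cccggttgcaaagtCTACCTCa
In IGF2BP2, IGF2BP3 and this LIN28B match the seed match was followed by an A, which is known to strengthen repression by microRNAs, and in HMGA1 by a T. Of the 4 matches in HMGA2, 1 was followed by an A, of those in IGF2BP1, 3, and of those in LIN28B, 2. A match is a run of letters and not a measured binding site.

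ZNF263 itself was at 9.11 to 9.55 FPKM in the PC9 controls and at 39.0 and 39.3 FPKM with the ZNF263 vector. In H1975 it went from 9.63 and 10.2 to 39.1 and 39.8 FPKM, and in HCC827 from 11.8 and 13.2 to 19.6 and 19.8 FPKM, a smaller step. The read totals recovered from the values were 17476738 to 20112217 reads in PC9, 16775485 to 17577555 in HCC827 and 31125606 to 33639270 in H1975. The FPKM that 1 read is worth, which depends on the gene length used, stood in 1 ratio (within 0.1%) between HCC827 and H1975 for 83.7% of 15260 genes and a whole factor off it for another 16.0%, where all reads of a gene share a divisor. Between PC9 and HCC827 the same rule gave 9.98% and 1.94% of 14692 genes, so the PC9 columns rest on other gene lengths. Relative to the median gene, the length used for HMGA1 was 1.22 times and that for IGF2BP3 1.37 times as long in PC9 as in HCC827, and the other 4 members lay between 0.988 and 1.002 times. Levels in PC9 are therefore only set beside those of the other lines. Over all genes tested with limma (adjusted p under 0.05), 7.21% were higher and 4.12% lower with ZNF263 in PC9. In HCC827 13.0% were higher and 6.44% lower, and in H1975 32.1% were higher and 32.1% lower. In HCC827 66.9% of these calls were higher, but 50.7% after median-of-ratios scaling and 50.3% after quantile normalization.

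HMGA1, the architectural chromatin protein that is abundant in embryonic and cancer cells, had the highest level of the 6 genes in every library. The gene lies at chr6:34236873-34246231 on the plus strand. In PC9 it was at 292 and 329 FPKM in the control libraries and at 279 and 261 FPKM with ZNF263. In HCC827 the controls had 533 and 506 FPKM and the ZNF263 libraries 306 and 307 FPKM. In H1975 HMGA1 was at 418 and 400 FPKM in the controls and at 198 and 197 FPKM with ZNF263. Both ZNF263 libraries lay below both controls in each line, and the gap in PC9 was smaller than the difference between the 2 PC9 controls. On the log2(FPKM + 1) scale the difference, ZNF263 minus control, was -0.20 ± 0.06 (SE, n = 2 against 2) in PC9, -0.76 ± 0.06 in HCC827 and -1.05 ± 0.06 in H1975. Control levels were thus 1.15, 1.69 and 2.07 times those with ZNF263. The SEs here and below come from the fit over all 12 libraries, which shares 1 spread per gene among the 6 groups. They are not the spread of a single line. Between 11062 and 29600 reads stood behind each value. HMGA1 has near-identical pseudogene copies, and how the authors' counting divided such reads is not given in the sources used here.

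HMGA2, the second AT-hook protein and a classical let-7 target, lies at chr12:65824131-65966295 on the plus strand. Its share of the summed HMGA level was at most 7.67% in any library. In PC9 it was at 17.8 and 19.6 FPKM in the controls and at 11.0 and 11.6 FPKM with ZNF263. The HCC827 controls had 34.4 and 40.7 FPKM and the ZNF263 libraries 25.4 and 24.1 FPKM. H1975 showed the widest gap, from 25.7 and 26.4 FPKM in the controls to 5.33 and 6.08 FPKM with ZNF263. In no line did the 2 groups overlap. The log2 differences were -0.68 ± 0.08 in PC9, -0.58 ± 0.08 in HCC827 and -2.02 ± 0.08 in H1975, and control levels were 1.66, 1.52 and 4.57 times those with ZNF263. The values rest on 1096 to 5371 reads per library.

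The 2 HMGA genes were not lower in the same proportion. HMGA2 made up 5.68% ± 0.08 (SD, n = 2) of the summed HMGA FPKM in PC9 controls and 4.02% ± 0.32 with ZNF263. In H1975 its share was 6.0% ± 0.30 in controls and 2.81% ± 0.26 with ZNF263, so HMGA1 stood at 15.7 times HMGA2 before and 34.8 times after. In HCC827 the share was 6.75% ± 0.98 in controls and 7.47% ± 0.29 with ZNF263, and there the libraries overlapped. The summed HMGA level was 435 ± 12.6 FPKM in H1975 controls and 203 ± 0.02 FPKM with ZNF263.

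**Figure D1:**
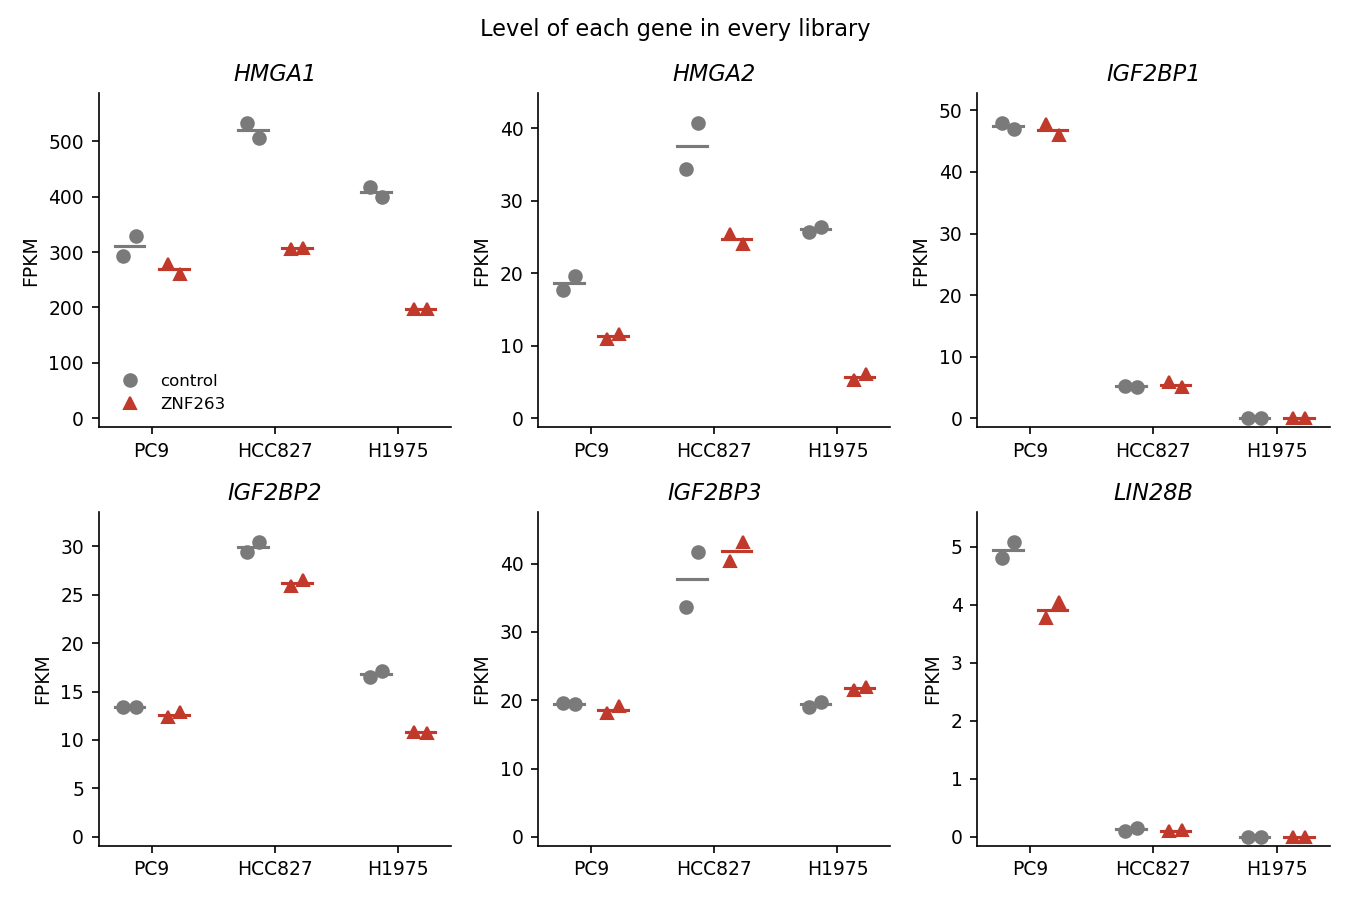
FPKM of each of the 6 genes (y axis, linear, a separate range per gene) in the 3 lines (x axis). Grey circles are control libraries, red triangles ZNF263 libraries and short bars the mean of 2. HMGA1, HMGA2 and IGF2BP2 have both triangles below both circles in all 3 lines, and IGF2BP1 and LIN28B are near 0 in H1975.

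Among the RNA-binding genes, IGF2BP1, which is scarce in most adult tissues, differed widely between lines. It lies at chr17:48997412-49055650 on the plus strand. PC9 had 47.9 and 47.0 FPKM in the controls and 47.7 and 45.9 FPKM with ZNF263. HCC827 had 5.33 and 5.10 FPKM in the controls and 5.83 and 5.04 FPKM with ZNF263. In H1975 only 3 and 1 reads were found in the controls and 6 and 1 with ZNF263, which is 0.0195 FPKM at most. Control and ZNF263 libraries overlapped in all 3 lines, and the log2 differences were -0.02 ± 0.07 in PC9 and 0.05 ± 0.07 in HCC827. In H1975 the level is too low to show a difference at this depth.

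IGF2BP2, the family member that many adult tissues keep and that is linked to metabolism and glioma stem cells, lies at chr3:185643739-185825056 on the minus strand. The PC9 controls had 13.4 and 13.4 FPKM and the ZNF263 libraries 12.3 and 12.9 FPKM. In HCC827 the controls were at 29.4 and 30.5 FPKM and the ZNF263 libraries at 25.9 and 26.5 FPKM. In H1975 the controls had 16.5 and 17.1 FPKM and the ZNF263 libraries 10.8 and 10.7 FPKM. IGF2BP2 was below the controls without overlap in each line, by a small margin in PC9. The log2 differences were -0.08 ± 0.05, -0.19 ± 0.05 and -0.60 ± 0.05 in PC9, HCC827 and H1975, so that controls had 1.06, 1.14 and 1.56 times the level.

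IGF2BP3, an mRNA-binding protein used by pathologists as a tumour marker, lies at chr7:23310209-23470467 on the minus strand and did not follow IGF2BP2. In PC9 it was at 19.6 and 19.4 FPKM in the controls and at 18.1 and 19.1 FPKM with ZNF263. In HCC827 the controls were far apart, at 33.7 and 41.7 FPKM, and the ZNF263 libraries at 40.4 and 43.2 FPKM overlapped with them. In H1975 both ZNF263 libraries, at 21.5 and 22.0 FPKM, were above the controls at 19.05 and 19.76 FPKM. The log2 differences were -0.07 ± 0.08, 0.15 ± 0.08 and 0.16 ± 0.08. The last of these is a mean level 12.1% higher with ZNF263 than in controls.

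Within the IGF2BP family the share of IGF2BP1 differed more between lines than between vectors. In PC9, IGF2BP1 made up 59.0% ± 0.29 of the summed IGF2BP FPKM in controls and 60.0% ± 1.5 with ZNF263. In HCC827 controls it was 7.19% ± 0.84 and in H1975 controls 0.0181% ± 0.0124. In H1975 the share of IGF2BP3 was 53.6% ± 0.06 in controls and 66.9% ± 0.53 with ZNF263, while that of IGF2BP2 was 46.4% ± 0.05 and 33.1% ± 0.49. In HCC827 IGF2BP3 went from 51.6% ± 3.34 to 56.9% ± 1.29, also without overlap. The summed level was 36.2 ± 0.90 FPKM in H1975 controls and 32.5 ± 0.23 FPKM with ZNF263, whereas in HCC827 it was 72.9 ± 6.27 and 73.5 ± 1.81 FPKM. The PC9 shares use the longer IGF2BP3 gene model named above, which lowers the FPKM of IGF2BP3 there for the same number of reads.

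**Figure D2:**
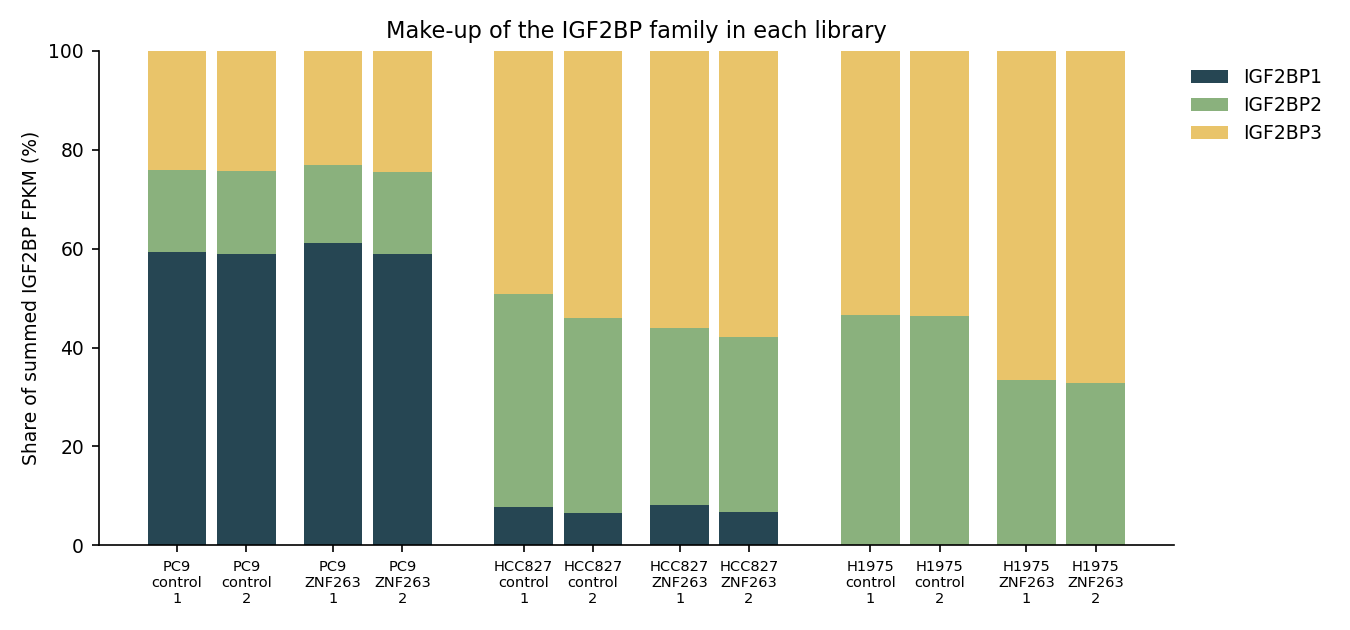
Share of IGF2BP1, IGF2BP2 and IGF2BP3 in their summed FPKM (y axis, percent), 1 bar per library, grouped by line and vector. PC9 libraries hold 58.8% to 61.1% IGF2BP1, and in H1975 IGF2BP3 takes 66.5% and 67.2% with ZNF263 against 53.5% and 53.6% in the controls.

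LIN28B, the let-7 inhibitor, lies at chr6:104936616-105083332 on the plus strand and passed 1 FPKM in PC9 alone. PC9 had 4.80 and 5.09 FPKM (550 and 614 reads) in the controls and 3.78 and 4.04 FPKM (400 and 443 reads) with ZNF263. Both ZNF263 libraries were below both controls, with a log2 difference of -0.28 ± 0.07, and controls had 1.26 times the level. HCC827 had 0.106 and 0.151 FPKM in controls and 0.0985 and 0.118 FPKM with ZNF263, on 10 to 15 reads per library, and the groups overlapped. In H1975 no library had a read, which allows a level of at most 0.0151 to 0.0163 FPKM (3 reads, counting error only). Its paralog LIN28A was listed at 0 in all 4 PC9 libraries, had no value in HCC827 and reached 0.0039 FPKM on average in H1975 controls. TRIM71, another let-7 target that acts in stem cells, was at 0.14 FPKM in PC9 controls and 0.112 FPKM with ZNF263, and averaged 0.0162 FPKM or less in every group of HCC827 and H1975.

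**Figure D3:**
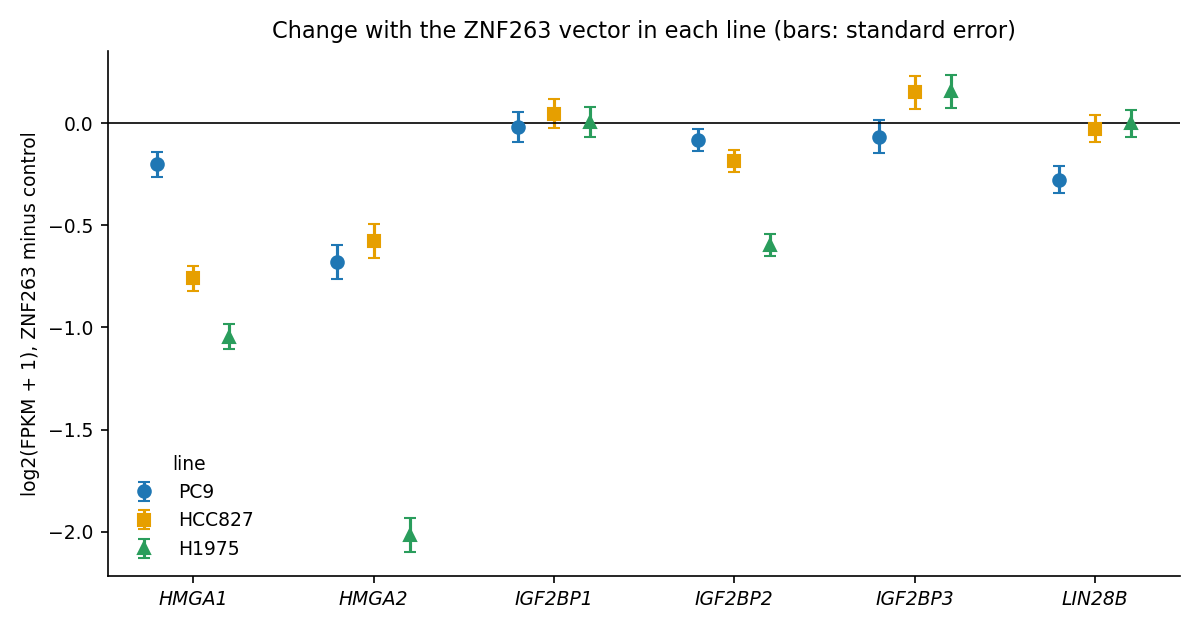
Difference in log2(FPKM + 1), ZNF263 minus control (y axis), for each gene (x axis) and line (circle PC9, square HCC827, triangle H1975), with standard error bars from the fit over all 12 libraries. HMGA2 in H1975 is lowest at -2.02, and every IGF2BP1 value lies within its error bar of 0.

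Counted over the members, both ZNF263 libraries lay below both controls for 5 of 6 in PC9 (all but IGF2BP1), against 29.2% of all tested genes. The count was 3 of 6 in HCC827, against 18.7%, and 3 of 6 in H1975, against 40.8%, where IGF2BP3 was above its controls. HMGA1, HMGA2 and IGF2BP2 were below in all 3 lines, as were 3.78% of the 12218 genes tested in every line. The members were picked on these values, so no threshold is applied to them here and nothing is read from the counts. The median log2 difference of the 6 was -0.14 in PC9, -0.11 in HCC827 and -0.30 in H1975, where that of all genes was 0, 0.04 and 0.

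The chromosomal surroundings of the members were examined through the 10 nearest tested genes on each side. In H1975 the 20 neighbours of HMGA1 had a median log2 difference of 0.50, with 16 of them called, and HMGA1 itself, at -1.05, went the other way. Around HMGA2 the H1975 median was -0.27 and around IGF2BP2 -0.22, which leaves -1.75 and -0.38 for these genes. In PC9 and HCC827 the medians around the 6 members lay between -0.03 and 0.09.

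Promoter sequence is shown for HMGA1, IGF2BP2 and IGF2BP3, the members with such a sequence that were above 1 FPKM in every library. RefSeq windows of 250 bases before to 50 after a start (GRCh38.p14) were matched for 4 members, HMGA1, IGF2BP2, IGF2BP3 and LIN28B. The letters GGGAGGA, part of the known ZNF263 motif, and their complement TCCTCCC on the other strand were searched, and matches are in capitals. The windows are chr6:34236623-34236922 (HMGA1, plus strand), chr3:185824993-185825292 (IGF2BP2, minus strand) and chr7:23470442-23470741 (IGF2BP3, minus strand), each printed on the gene's strand.
HMGA1: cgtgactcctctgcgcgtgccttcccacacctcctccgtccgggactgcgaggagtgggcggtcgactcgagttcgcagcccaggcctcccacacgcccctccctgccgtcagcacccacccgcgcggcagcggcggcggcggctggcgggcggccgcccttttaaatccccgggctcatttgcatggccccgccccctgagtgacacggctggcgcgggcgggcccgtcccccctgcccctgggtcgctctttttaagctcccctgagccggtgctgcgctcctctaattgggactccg
IGF2BP2: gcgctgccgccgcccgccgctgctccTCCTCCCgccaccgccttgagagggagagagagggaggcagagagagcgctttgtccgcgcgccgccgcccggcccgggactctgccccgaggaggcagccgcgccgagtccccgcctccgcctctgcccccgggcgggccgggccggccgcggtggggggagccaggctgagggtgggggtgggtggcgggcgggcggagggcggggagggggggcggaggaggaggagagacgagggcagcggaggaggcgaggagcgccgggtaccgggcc
IGF2BP3: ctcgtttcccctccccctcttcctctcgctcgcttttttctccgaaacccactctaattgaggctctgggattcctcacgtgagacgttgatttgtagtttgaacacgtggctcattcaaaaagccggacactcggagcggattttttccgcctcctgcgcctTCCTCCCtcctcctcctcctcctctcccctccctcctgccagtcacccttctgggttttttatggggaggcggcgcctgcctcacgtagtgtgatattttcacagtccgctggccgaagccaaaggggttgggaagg
IGF2BP2 and IGF2BP3 had 1 match each, on the other strand, and 18.1% of the 35116 windows in the table hold at least 1. The letters are not in the HMGA1 window shown, in its second window, in the second window of IGF2BP2 or in either LIN28B window.

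A second contrast, which was not itself used to choose the members, set the control libraries of H1975 against those of HCC827. The same control libraries entered the ZNF263 contrasts that the members were chosen on. The p-values below are therefore not independent of that choice. Every member was lower in H1975 by limma with Benjamini-Hochberg adjustment, as were 37.8% of the 12218 genes tested. IGF2BP1 showed the largest difference, from 5.21 ± 0.16 FPKM (SD, n = 2) in HCC827 to 0.0065 ± 0.0043 FPKM in H1975, or -2.63 ± 0.07 (SE) on the log2(FPKM + 1) scale (adjusted p = 2.57e-12, limma). Since the H1975 level is near 0, the pseudocount sets this size, and with 0.1 in place of 1 it was -5.64. IGF2BP3 was at 37.7 ± 5.67 and 19.4 ± 0.50 FPKM (log2 difference -0.92 ± 0.08, limma adjusted p = 2.24e-07), and IGF2BP2 at 29.9 ± 0.77 and 16.8 ± 0.40 FPKM (-0.80 ± 0.05, limma adjusted p = 1.48e-08). The HMGA genes differed less, HMGA1 by -0.34 ± 0.06 (limma adjusted p = 0.000173) and HMGA2 by -0.51 ± 0.08 (limma adjusted p = 9.29e-05). LIN28B differed by -0.17 ± 0.07 (limma adjusted p = 0.0262), a call that was lost without either H1975 control or without HCC827 control replicate 2 (limma adjusted p = 0.0733 to 0.108). With a pseudocount of 0.1 it was -1.19 (limma adjusted p = 2.62e-05). The line and any difference in how its libraries were made cannot be told apart, and the H1975 libraries were deeper.

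With PC9 set beside the other lines, the order of levels differed from gene to gene. IGF2BP1 and LIN28B were highest in PC9, followed by HCC827 and then H1975, with no overlap between lines. HMGA2 and IGF2BP2 were highest in HCC827 controls, then H1975 controls, then PC9 controls, again without overlap. HMGA1 was highest in HCC827 controls, and its place in PC9 depends on the gene length. As deposited, the PC9 controls lay below the H1975 controls, and multiplied by the length ratio they spanned 355 to 400.2 FPKM and reached the lower H1975 control at 399.6 FPKM. IGF2BP3 was highest in HCC827 with either vector. Its PC9 and H1975 controls overlapped as deposited, but with the length ratio the PC9 controls were at 26.6 and 26.9 FPKM, above those of H1975.

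The genes whose values ran most closely with a member were found by Pearson's r over the 12 libraries, each centred on its line's mean, among 12217 other genes. These points share libraries and the 2 vectors, so r is a description. HMGA2 ran closest with PKIB (r = 0.989), a protein kinase A inhibitor, CLDN1 (0.989), a tight-junction protein, and EGFR (0.988), the receptor that osimertinib inhibits. EGFR's log2 differences were -0.52, -0.32 and -1.01 in PC9, HCC827 and H1975. HMGA1 ran closest with UPP1 (0.984), a uridine phosphorylase, DUSP5 (0.984), an ERK phosphatase, and PGAM1 (0.983), a glycolytic enzyme. For IGF2BP2 they were CAPN2 (0.997), a calpain protease, DHRS2 (0.991), a dehydrogenase, and SFN (0.990), a 14-3-3 protein. IGF2BP3 ran with CHM, RDX and PANK3 (0.966 to 0.973), and LIN28B with RSPO3, FOXC2 and VGLL3 (0.973 to 0.975), whose log2 differences in PC9 were -0.61, -1.38 and -0.86. In HCC827 and H1975 the differences of these 3 genes lay between -0.03 and 0.06, and LIN28B was at 0.151 FPKM or less. The r values of LIN28B thus rest mainly on PC9. IGF2BP1, which hardly moved, reached only 0.840 to 0.875, with TNK2, CIC and ZBED8. Among the members, HMGA2 and IGF2BP2 had r = 0.977, HMGA1 and IGF2BP2 0.929 and HMGA1 and HMGA2 0.918, whereas IGF2BP3 was negative with all 3 of them (-0.45 to -0.66).

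The lists of pathway genes below were chosen with earlier results of these data known, and each count is read against the shares of all genes given above. Of 25 tested other let-7 targets, 1 rose and 5 fell in PC9, 3 rose and 8 fell in HCC827, and 6 rose and 14 fell in H1975 (limma, adjusted p under 0.05). The 11 calls in HCC827 became 4 without ZNF263 replicate 1, and the 6 in PC9 became 3 without ZNF263 replicate 2 or control replicate 2. The medians were -0.08, -0.08 and -0.29, against 0, 0.04 and 0 for all genes. CCND1, CDC25A, IRS2 and SLC20A1, 4 of the 25, fell in all 3 lines, and none rose in all 3. Of the 12218 genes tested in every line, 0.499% fell in all 3. The list was chosen with earlier results known, so nothing is read from this count. CCND1, the cyclin that drives entry into the cell cycle, fell by 0.30 ± 0.05 in PC9, by 0.39 ± 0.05 in HCC827 and by 1.93 ± 0.05 in H1975 on the log2 scale. Its mean level in H1975 was 205 FPKM in controls and 53.0 FPKM with ZNF263. SLC20A1, a phosphate transporter, fell by 0.34, 0.47 and 0.81 in the same order, and IRS2, an adaptor of the insulin receptor, fell by 0.37, 0.28 and 0.29. CDC25A, a phosphatase that activates cyclin-dependent kinases, fell by 0.32, 0.31 and 0.35. The CDC25A call was lost without PC9 control replicate 1, PC9 control replicate 2 or PC9 ZNF263 replicate 2, and without HCC827 ZNF263 replicate 1 or HCC827 control replicate 1, and that of IRS2 without HCC827 ZNF263 replicate 1. ARID3B and FAS, a chromatin protein and a death receptor, fell in H1975 by 1.78 and 1.23, and TGFBR1, a TGF-beta receptor, rose there by 0.89. MYC fell in HCC827 by 0.51 and rose in H1975 by 0.56. Its fall of 0.25 in PC9 was lost when any 1 of the 4 PC9 libraries was left out.

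**Figure D4:**
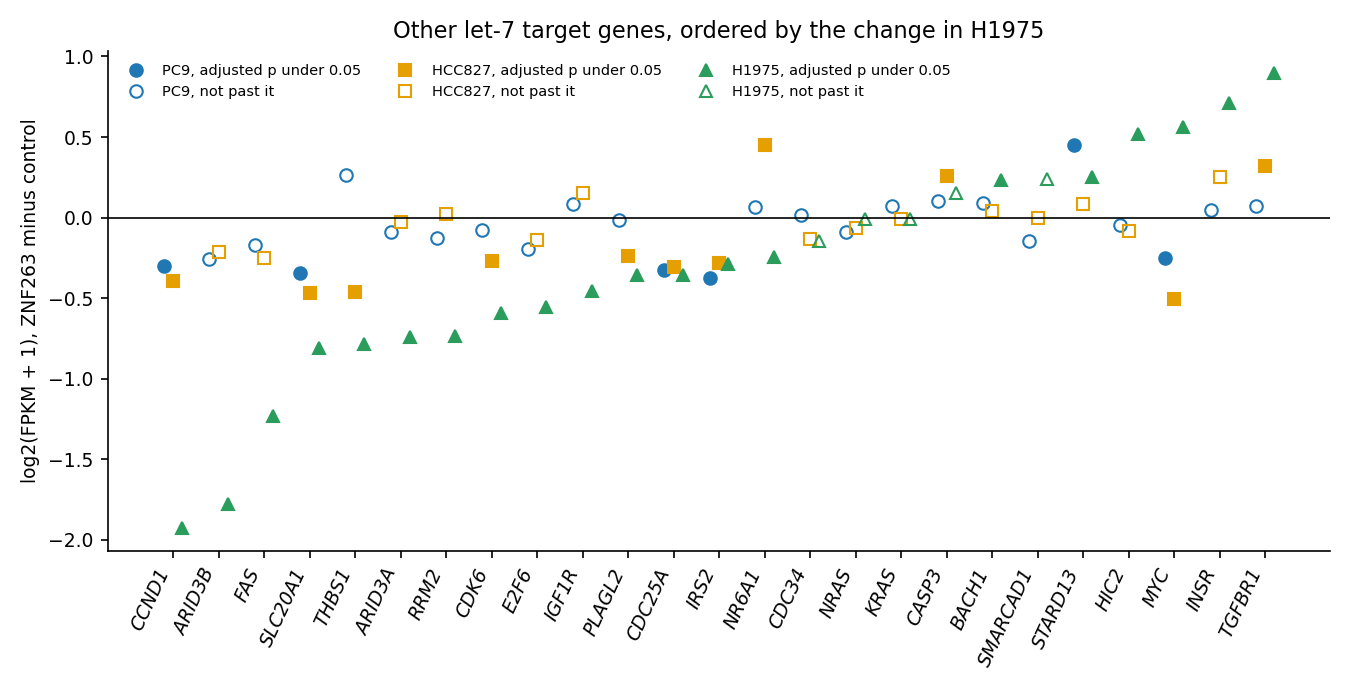
Difference in log2(FPKM + 1), ZNF263 minus control (y axis), for 25 let-7 target genes other than the members (x axis), ordered by H1975. Circles are PC9, squares HCC827 and triangles H1975, filled where limma's adjusted p was under 0.05. CCND1, SLC20A1, CDC25A and IRS2 are filled and below 0 in every line, and MYC lies on both sides of 0.

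Over all tested genes, the share that fell did not climb steadily with the number of let-7 seed matches. Members left out, 12370 tested genes of PC9, 12129 of HCC827 and 12123 of H1975 had a 3′ UTR. Genes with no match fell in 4.15% of cases in PC9, 6.43% in HCC827 and 32.0% in H1975. Genes with 1 match fell in 3.92%, 6.14% and 33.5%, and genes with 2 matches in 5.93%, 5.98% and 29.3%. Of the 22 genes with 3 or more matches, 0 fell in PC9, 0 in HCC827 and 7 in H1975, and 1, 2 and 6 rose. Their median log2 differences were 0, 0.06 and 0.01. The median 3′ UTR length in PC9 was 975.5 bases with no match and 6447.5 bases with 3 or more. The number of matches and the length of the 3′ UTR thus cannot be told apart here, and a part of let-7 was not tested.

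In the machinery that makes and destroys let-7, 0 of 13 tested genes passed limma's threshold in PC9 and 0 of 11 in HCC827, and at an unadjusted p under 0.05 the counts were 0 and 2. Without HCC827 control replicate 2, 2 passed in that line. In H1975 5 rose and 2 fell of 11, a share near that of all genes. DGCR8, the partner of DROSHA, and AGO1, a core silencing protein, rose by 0.42 ± 0.07 and 0.43 ± 0.07, and DICER1, which cuts the let-7 hairpin, and its partner TARBP2 fell by 0.41 ± 0.08 and 0.66 ± 0.08. Mature let-7 was not analysed here. Of 6 host transcripts only HUWE1, whose intron holds let-7f-2 and miR-98, was in the table. HUWE1 rose in H1975 from 31.5 ± 0.30 to 60.3 ± 1.72 FPKM (log2 0.92 ± 0.05, limma adjusted p = 3.74e-09) and in HCC827 by 0.19 ± 0.05, a call lost after median-of-ratios scaling and without HCC827 ZNF263 replicate 1. In PC9 its difference was 0.07 ± 0.05 (limma adjusted p = 0.383).

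Transcripts known to be bound by IGF2BP proteins moved in both directions. Of 14 tested, 3 rose and 2 fell in PC9, 1 rose and 3 fell in HCC827, and 5 rose and 3 fell in H1975. The 5 calls in PC9 became 2 or 3 when any 1 of the 4 PC9 libraries was left out. IGF2, the growth factor that gave the family its name, was at 1.75 ± 0.18 FPKM in PC9 controls and 0.597 ± 0.01 FPKM with ZNF263. It passed the filter on low values only through those controls, so its call is no support for a fall, and without it 1 gene of the list fell in PC9. CD44, a hyaluronan receptor, rose in PC9 by 0.58 and in H1975 by 0.42, and LAMB2, a laminin chain, rose in H1975 by 1.14. CTNNB1, beta-catenin, rose in HCC827 by 0.47 and fell in H1975 by 0.33. A list of 12 genes held readers, writers and erasers of m6A, the RNA mark that IGF2BP proteins recognise. ALKBH5 and FTO are its erasers, so rises and falls in this list mix opposite roles. None of the 12 passed limma's threshold in PC9 (2 at an unadjusted p under 0.05). In HCC827 1 rose and 1 fell, a count that went from 2 to between 0 and 6 when 1 library was left out, and in H1975 5 rose and 5 fell, with 6 in all without ZNF263 replicate 2 or control replicate 2.

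Of 13 genes linked to HMGA proteins, 2 rose and 3 fell in PC9, 1 rose and 4 fell in HCC827, and 5 rose and 5 fell in H1975. Leaving out 1 library gave 3 or 4 calls in place of 5 in PC9 and in HCC827. PTGS2, the inducible cyclooxygenase, fell in H1975 from a mean of 94.2 to 6.53 FPKM (log2 -3.66 ± 0.10) and in PC9 by 0.57. CDH1, the epithelial cadherin, rose in PC9 by 0.99 and fell in H1975 by 2.23, and VIM, a mesenchymal filament protein, fell in HCC827 by 0.63 and rose in H1975 by 0.71. Of the 8 other HMG proteins 3 rose in PC9 and none fell, 1 rose in HCC827, and 4 rose and 2 fell in H1975. The 3 calls in PC9 became 0 to 2 when 1 library was left out, and without HCC827 control replicate 2 that line had 3. HMGB3, which has HMG boxes in place of AT-hooks, rose in HCC827 by 0.65 and fell in H1975 by 0.91. Of 4 tested oncofetal genes outside the family, 1 fell in PC9 (IGF2, described above), 2 rose in HCC827, and 1 rose and 1 fell in H1975. CEACAM5, the carcinoembryonic antigen, rose in HCC827 from 4.21 to 11.0 FPKM. PEG10, an imprinted gene, rose there by 0.46 and fell in H1975 by 0.82. TPBG, a surface glycoprotein, rose in H1975 by 0.20, a call lost when any 1 of the 4 H1975 libraries was left out.

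Markers of cell type moved in the same libraries. In bulk RNA fewer cells of a type and less RNA per cell cannot be told apart. In H1975 7 of 10 epithelial markers fell and 1 rose, and their summed level went from 4260 and 4262 FPKM in controls to 1916 and 1931 FPKM with ZNF263. EPCAM there averaged 225 FPKM in controls and 31.7 FPKM with ZNF263, and KRT8 585 and 692 FPKM. In HCC827 2 rose and 2 fell, with sums of 3997 and 4510 against 3721 and 3923 FPKM, and in PC9 4 rose and none fell, with sums of 2786 and 2810 against 3959 and 4193 FPKM. The 4 in PC9 include NKX2-1, which averaged only 0.0596 FPKM in controls and 0.353 FPKM with ZNF263 and passed the filter through the other lines. PC9 lacked part of the expected epithelial profile, with EPCAM at 0.414 FPKM or less in each library and KRT19 at 0 in both controls. The sum of 10 fibroblast markers went in H1975 from 30.9 and 34.3 to 176 and 180 FPKM, carried by COL1A2 (14.6 to 166 FPKM), while DCN was at 0.0473 FPKM or less in every library of the study, LUM fell from 1.84 to 0.132 FPKM and PDGFRB rose to 1.62 FPKM. In the other lines the fibroblast sum stayed between 6.70 and 23.7 FPKM. PTPRC, the defining immune marker, was at 0.0458 FPKM or less in every library, and the endothelial markers PECAM1 and CDH5 at 0.568 FPKM or less. The summed immune list was 95.4 and 95.8 FPKM in H1975 controls and 80.0 and 85.6 FPKM with ZNF263, 42.7 and 43.5 against 31.9 and 37.0 FPKM in HCC827 and 3.61 to 4.13 FPKM in PC9, and the endothelial list summed to 4.22 FPKM or less. Most of the immune sum was CD68, with means of 82.0 FPKM in H1975 controls and 61.4 FPKM with ZNF263. In HCC827 CD68 averaged 41.5 and 32.9 FPKM. In H1975 3 fibroblast markers rose and 2 fell of 5 tested, 1 immune marker rose and 2 fell of 3 tested, and the 1 endothelial marker tested fell. The immune marker that rose was CD14, from a mean of 3.09 FPKM in controls to 20.2 FPKM with ZNF263. PDGFRB, counted as risen, passed the filter only through the H1975 ZNF263 libraries. CD79A, an immune marker counted as fallen, passed it only through the H1975 controls (mean 10.3 FPKM, and 0.671 FPKM with ZNF263). Their calls are thus no support for a rise or a fall. COL3A1, also counted as risen in H1975, averaged only 0.140 FPKM in controls and 0.308 FPKM with ZNF263. It passed the filter only through the HCC827 ZNF263 libraries. The part of these markers in the values of the 6 genes was not tested.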

How the data were processed

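RNA-seq was run on 12 libraries in 6 groups. The authors deposited a single table of FPKM values with a column for each library, on the build GRCh38.p13 per the submitters' processing notes. No aligner, counting tool, annotation or use of strand is given in the sources used here, so reads of LIN28B or IGF2BP2 and of their antisense transcripts cannot be told apart. Per the labels' protocols, TRIZOL was used to take RNA and a SMARTER mRNA-seq kit to build libraries. The 27 entries with date-like gene names were left out, as were gene values missing in a line (3383 genes in HCC827, 3339 in H1975).

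Whole reads were sought for each gene as the smallest numbers that make its FPKM values whole multiples (within 0.1 reads), and were found for 100% of genes in PC9 and H1975 and 99.994% in HCC827. They serve for depth only, and were tested on simulated data. Genes with at least 1 FPKM in 2 libraries were fitted on log2(FPKM + 1) with limma 3.58.1 (R 4.3.3), trended, all 12 libraries, 6 group means, 2-sided, Benjamini-Hochberg over genes, threshold 0.05, and the fit was tested on simulated data. Fold changes on this scale understate those of low genes. The members and gene lists were chosen with earlier results of these data known. Named list genes are at most 4 called genes per list and line, those with the largest change, plus LIN28A, TRIM71, the let-7 host transcripts and genes called lower in all 3 lines. For each member the 3 genes with the highest r are named. Alternatives were a pseudocount of 0.1, no filter, 1 FPKM in 4 libraries, median-of-ratios or quantile scaling within a line, each line alone, a replicate block, leaving out each library, and subtracting the neighbours' median. Multiplying PC9 values by the gene length ratio to HCC827 was added after seeing the data.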

Additional observations from a re-analysis of the deposited data

Results flagged for a closer look

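For 1 member the libraries lay on opposite sides of their controls in 2 lines. Both IGF2BP3 libraries with ZNF263 were below the controls in PC9 (log2 -0.065 ± 0.08) and above them in H1975 (0.16 ± 0.08). The difference in PC9 is smaller than the standard error of the fit. That error is shared by all 6 groups, among them the HCC827 controls, which were far apart at 33.7 and 41.7 FPKM. It is therefore not the spread of the PC9 libraries. The difference between the lines was not tested because the members were chosen on this contrast.

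A set of 12 genes of the pathway and marker lists was called in opposite directions in different lines. Their effects also differed between lines in limma's test of the line by vector interaction (adjusted p under 0.05). Calls in opposite directions all but imply that result, so it adds no support. The share of all tested genes with such calls is not given here. CDH1 was at 0.99 in PC9 and -2.23 in H1975 on the log2 scale. CLDN4, a tight-junction protein, was at 0.33 in HCC827 and -2.37 in H1975. KRT18, an epithelial keratin, was at 0.65 in PC9 and -0.23 in H1975. CTNNB1 was at 0.47 in HCC827 and -0.33 in H1975. HMGB3 had 0.17 in PC9, 0.65 in HCC827 but -0.91 in H1975. HMGN3 was at 0.33 in PC9 and -0.25 in H1975. MYC had -0.25 in PC9, -0.51 in HCC827 but 0.56 in H1975. NR6A1, a nuclear receptor and let-7 target, was at 0.45 in HCC827 and -0.25 in H1975. PDLIM7 had 0.25 in PC9, whereas it had -0.25 in HCC827 and -0.31 in H1975. PEG10 was at 0.46 in HCC827 and -0.82 in H1975. PLAU, the urokinase protease, had 0.41 in PC9, whereas it had -0.25 in HCC827 and -2.13 in H1975. VIM was at -0.63 in HCC827 and 0.71 in H1975. For CDH1, CTNNB1, PEG10 and VIM the calls on both sides were kept whichever single library was left out. For MYC this held in HCC827 and H1975, for HMGB3 in HCC827 and H1975 and for PLAU in PC9 and H1975. NR6A1 and HMGN3 lost the call on both sides, each without some library. Calls were also lost in this way for CLDN4 in HCC827, KRT18 in H1975 (without ZNF263 replicate 2), PDLIM7 in PC9 and HCC827, HMGB3 and MYC in PC9, and PLAU in HCC827.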

How the results depend on the processing

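Differences of IGF2BP1 near 0 changed sign, in PC9 to 0.0012 under quantile normalization and 0.0083 without ZNF263 replicate 2, in HCC827 to -0.034 and, without ZNF263 replicate 1, -0.040, and in H1975 to -0.0047 without ZNF263 replicate 1. LIN28B in HCC827 went to 0.0031 without control replicate 2, and no other member difference changed sign. Fitting each line alone lowered the number of genes called from 1430 to 407 in PC9 and from 2386 to 634 in HCC827, and that of the pathway lists together from 18 to 6 and from 25 to 9, with fewer residual degrees of freedom. Leaving out 1 library gave 591 to 854 genes in PC9 and 1082 to 3109 in HCC827 (1082 without ZNF263 replicate 1), and 9 to 12 and 13 to 32 list genes. In H1975, with 7870 genes called, the range was 6886 to 6970. In HCC827 the members with no overlap between groups, in either direction, numbered 4 to 5 when a library was left out, against 3. With fewer libraries such a count can only stay or rise, so nothing is read from it. LIN28B in control cells, H1975 minus HCC827, lay between -0.20 and -0.15 when a library was left out and lost its call without 3 of the 4, and with a pseudocount of 0.1 it was -1.19. IGF2BP1 in the same contrast went from -2.63 to -5.64 with that pseudocount. Same-numbered libraries deviated together with correlations of 0.0178, 0.0936 and -0.0493 in PC9, HCC827 and H1975. These values cannot settle whether such libraries were made together. The replicate block gave 1364, 2262 and 7850 calls. With equal groups it cannot change the difference of a member, so it is no check of the members. A pseudocount of 0.1 moved 5 of the 18 member differences beyond the spread between libraries, subtracting the neighbours' median 8, quantile normalization 3 and median-of-ratios scaling 2. Of the calls of list genes that the text may name, 10 of 19 in PC9, 12 of 22 in HCC827 and 7 of 42 in H1975 were lost when some single library was left out. With 2 libraries per group, small differences in PC9 and HCC827 are the least certain, and depth limits IGF2BP1 in H1975 and LIN28B outside PC9.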
